A study of Mus musculus with 2 samples.

Results

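The barcodes described here were chosen from single-cell RNA-seq of a mouse blood neutrophil preparation by their globin and Alas2 transcripts, which mark reticulocytes and other erythroid cells. A barcode was taken when it held at least 1000 unique molecular identifiers (UMIs, counts of single captured RNA molecules), at most 10% of them from mitochondrial genes, at least 20% of them from the adult globin genes Hba-a1, Hba-a2, Hbb-bs and Hbb-bt, and at least 1 UMI of Alas2. This rule gave 1622 of the 34768 barcodes called as cells, 971 in the WT library and 651 in the APP/PS1 library. The libraries compared blood neutrophils of APP/PS1 transgenic mice, a model of brain amyloid built on mutant human transgenes, with those of WT mice. All were female and 7 months old, none has a treatment in the labels, and the cells of 3 mice were pooled into 1 library per genotype. The labels call the control mice WT, the study's methods list C57BL/6J mice beside the transgenic ones, and the promoter of the transgenes is not given in the sources used here. Blood was treated with ammonium chloride, which lyses red cells, and neutrophils were then enriched with an antibody kit. The WT library held 17123 barcodes and 92458623 UMIs and the APP/PS1 library 17645 barcodes and 84870864 UMIs. With 1 library per genotype there is no replicate error, no test was run, and genotype, library and pool of mice cannot be told apart. Intervals below are 95% intervals, exact except for the difference of shares (Newcombe), and cover counting error only.

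Reticulocytes are young red cells that have expelled the nucleus and left the marrow. They still translate globin from messenger RNA made earlier, complete haem synthesis with the erythroid enzyme Alas2 as its first step, clear their mitochondria by autophagy, and lose RNA and surplus membrane protein within days in the circulation. Adult haemoglobin joins alpha chains from Hba-a1 and Hba-a2 with beta chains from Hbb-bs and Hbb-bt, and older red cells carry almost no RNA.

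The genes used by the rule lie at the alpha globin locus (GENCODE, mm10: Hba-a1 at chr11:32283511-32284465 and Hba-a2 at chr11:32296489-32297298, plus strand), the beta globin locus (Hbb-bt at chr7:103812524-103813996 and Hbb-bs at chr7:103826534-103828096, minus strand) and on the X chromosome (Alas2 at chrX:150547375-150570638, plus strand). Their upstream sequence is shown because the results turn on these 5 genes being read together in single barcodes. Each line gives the 250 bases before the RefSeq start in GRCm38.p6, the assembly of mm10, 5′ to 3′ on the gene's strand, with motif matches on both strands in capitals. GATAA is the core that GATA factors are known to bind and reads TTATC on the other strand. Klf factors are known to bind CACCC, which reads GGGTG in reverse. CCAAT boxes, which NF-Y is known to bind, read ATTGG in reverse.
Hba-a1 (chr11:32283422-32283671): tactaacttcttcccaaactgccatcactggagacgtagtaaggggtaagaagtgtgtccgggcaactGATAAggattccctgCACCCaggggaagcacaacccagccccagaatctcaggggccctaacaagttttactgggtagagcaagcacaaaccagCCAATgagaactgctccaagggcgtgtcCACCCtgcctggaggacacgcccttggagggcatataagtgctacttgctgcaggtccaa
Hbb-bs (chr7:103827929-103828178): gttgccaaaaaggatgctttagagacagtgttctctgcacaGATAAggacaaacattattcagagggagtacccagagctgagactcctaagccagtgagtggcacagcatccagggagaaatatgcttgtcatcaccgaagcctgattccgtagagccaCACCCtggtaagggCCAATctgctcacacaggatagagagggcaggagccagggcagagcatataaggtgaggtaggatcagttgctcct
Hbb-bt (chr7:103813924-103814173): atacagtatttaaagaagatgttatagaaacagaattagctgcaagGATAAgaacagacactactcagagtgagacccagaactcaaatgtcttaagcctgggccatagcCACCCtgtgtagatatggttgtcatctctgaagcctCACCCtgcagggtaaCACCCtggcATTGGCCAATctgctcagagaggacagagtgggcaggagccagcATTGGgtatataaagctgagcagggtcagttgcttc
Alas2 (chrX:150547167-150547416): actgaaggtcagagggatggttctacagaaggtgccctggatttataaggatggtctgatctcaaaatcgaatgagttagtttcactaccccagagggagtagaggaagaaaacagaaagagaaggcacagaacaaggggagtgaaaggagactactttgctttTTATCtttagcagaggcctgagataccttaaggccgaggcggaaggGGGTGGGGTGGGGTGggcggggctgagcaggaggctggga
All 5 windows, that of Hba-a2 included, held 1 GATAA match. The globin windows held CACCC and CCAAT as well, 3 matches of each in Hbb-bt, and the Alas2 window held 3 adjoining CACCC matches on the other strand and no CCAAT, and no matches overlapped. Of 32851 RefSeq windows of this length, 22.6% held GATAA, 52.0% CACCC, 33.8% CCAAT and 3.45% all 3, so single matches are common. The windows of Hba-a1 and Hba-a2 were identical over 247 bases when shifted by the difference in annotated starts, whereas those of Hbb-bs and Hbb-bt were identical at 178 of 257 aligned positions (69.3%). The transcript ends followed the same order, and only 19.9% of the 50-base stretches in the last 300 bases of Hba-a1 were missing from Hba-a2, against 63.3% for Hbb-bs set against Hbb-bt. UMIs of Hba-a1 and Hba-a2 are therefore uncertain as single genes, and the pair is given as a sum.

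Most of these barcodes contained almost nothing but globin RNA. A smaller number held globin beside many other transcripts, and most of those had markers of leukocytes. Globin made up 80% or more of UMIs in 769 WT barcodes (79.2%, 76.5 to 81.7) and 499 APP/PS1 barcodes (76.7%, 73.2 to 79.9). They are called globin-dominated barcodes here, and 698 and 438 of them were even at 90% or more. The limit of 80% was chosen after the values had been seen, and 26 WT and 18 APP/PS1 barcodes lay within 75 to 85%. Globin-dominated barcodes held a median of 4444 globin UMIs in WT and 4298 in APP/PS1, but a median of only 274 and 269 other UMIs and 128 and 113 genes. The 202 WT and 152 APP/PS1 barcodes with 20 to 80% globin held about as much globin (medians of 4374 and 4422.5 UMIs) beside 3361 and 3106 other UMIs and 1152.5 and 1166.5 genes. A neutrophil-like barcode held a median of 955 genes in WT and 1002 in APP/PS1. Such a barcode had at least 3 counted neutrophil markers and fewer than 3 of each of the monocyte, B, T and NK cell lists. The other classes were called in the same way.

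**Figure D1:**
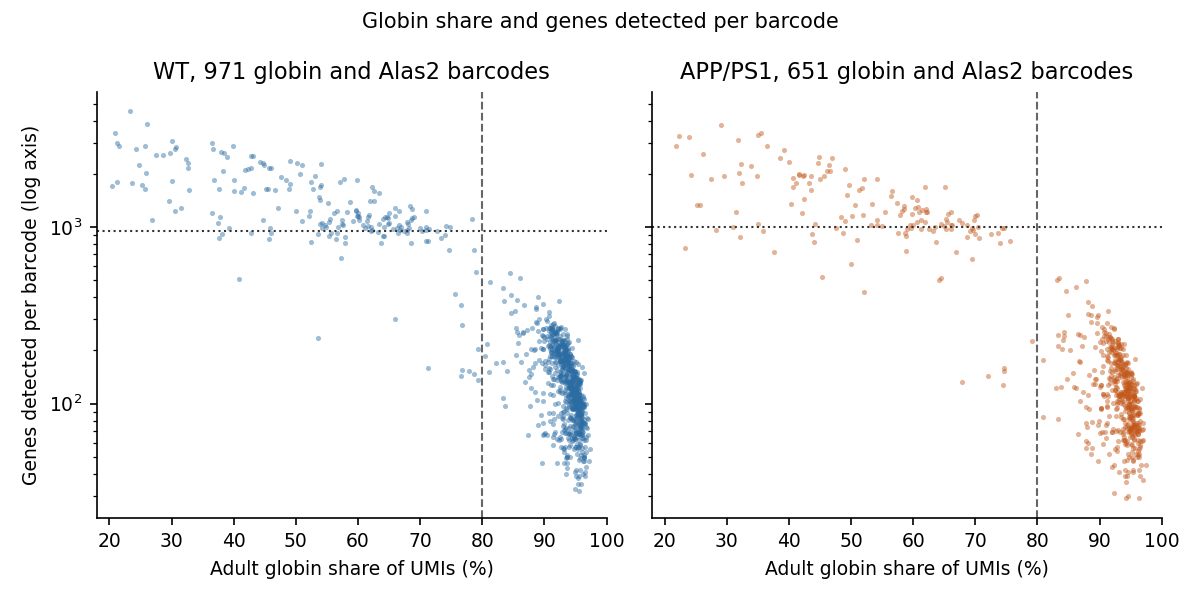
Globin share of UMIs in percent (x axis) against genes detected (y axis, log) for each of the 971 WT and 651 APP/PS1 barcodes, 1 point per barcode. The dashed line marks 80% globin and the dotted line the median of neutrophil-like barcodes (955 and 1002 genes). Barcodes right of the dashed line lie far below the dotted line (medians of 128 and 113 genes), and most of those left of it lie near or above it.

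The number of genes was far lower at the highest globin shares than at the lowest, while the number of globin UMIs was not. In WT the median number of genes went from 2554 in barcodes with 20 to 30% globin to 789.5 in those with 70 to 80% and 123 in those above 90%, and in APP/PS1 from 1961.5 at 20 to 30% and 2131 at 30 to 40% to 851.5 and 111. Median globin UMIs were 2783 and 2001 at 20 to 30%, 5357 and 5226.5 at 60 to 70% and 4508.5 and 4516 above 90%. At the edges of the rule, 9 WT and 5 APP/PS1 barcodes had 20 to 25% globin and 6 and 4 with Alas2 had 15 to 20%. The 15 to 20% barcodes held a median of 2065.5 genes in WT and 3174 in APP/PS1 against 2772 and 2881 just inside. The other condition left out 44 WT and 45 APP/PS1 barcodes with enough globin and no Alas2, which were shallower, with medians of 1589 and 1946 UMIs and 71.5 and 72 genes.

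Markers of white cells were lower in the globin-dominated range, both per barcode and per non-globin UMI. The ranges were cut on globin share at like globin UMIs, so barcodes above 80% hold less non-globin RNA by construction and values per barcode are a description. Per 1000000 non-globin UMIs, the 4 pan-leukocyte genes summed to 1548 in WT and 1250 in APP/PS1 globin-dominated barcodes, 5741 and 6045 in those with 20 to 80% globin and 6129 and 6078 in other barcodes. Ptprc, which encodes CD45 on all leukocytes, had a UMI in 11.7% (9.52 to 14.2) of WT and 11.6% (8.95 to 14.8) of APP/PS1 globin-dominated barcodes, against 92.6% and 96.1% of barcodes with 20 to 80% globin and 98.4% and 95.6% of T cell-like barcodes (median depths of 274 and 269, 3361 and 3106, and 4257 and 4287.5 non-globin UMIs). S100a9, the most abundant neutrophil transcript, averaged 2.88 and 3.11 UMIs per globin-dominated barcode. That is below the 4.66 and 4.99 UMIs in T cell-like and the 4.23 and 5.06 in B cell-like barcodes, which are not known to make it. Per non-globin UMI the order turned. The neutrophil markers made up 1.86% and 1.84% in globin-dominated and 0.216% and 0.218% in T cell-like barcodes. The source of these UMIs was not tested, and the S100a9 level is not read as expression. With 20 to 80% globin the mean was 172 and 167 UMIs, and in neutrophil-like barcodes it was 261 and 245. All 13 neutrophil markers had UMIs in the globin-dominated barcodes, where they summed to 4484 and 2872 UMIs (5.83 and 5.76 per barcode), with S100a9 the most abundant. Malat1, a nuclear RNA, averaged 0.477 and 0.551 UMIs per globin-dominated barcode against 57.9 and 62.6 in T cell-like barcodes and 56.5 and 60.2 with 20 to 80% globin.

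**Figure D2:**
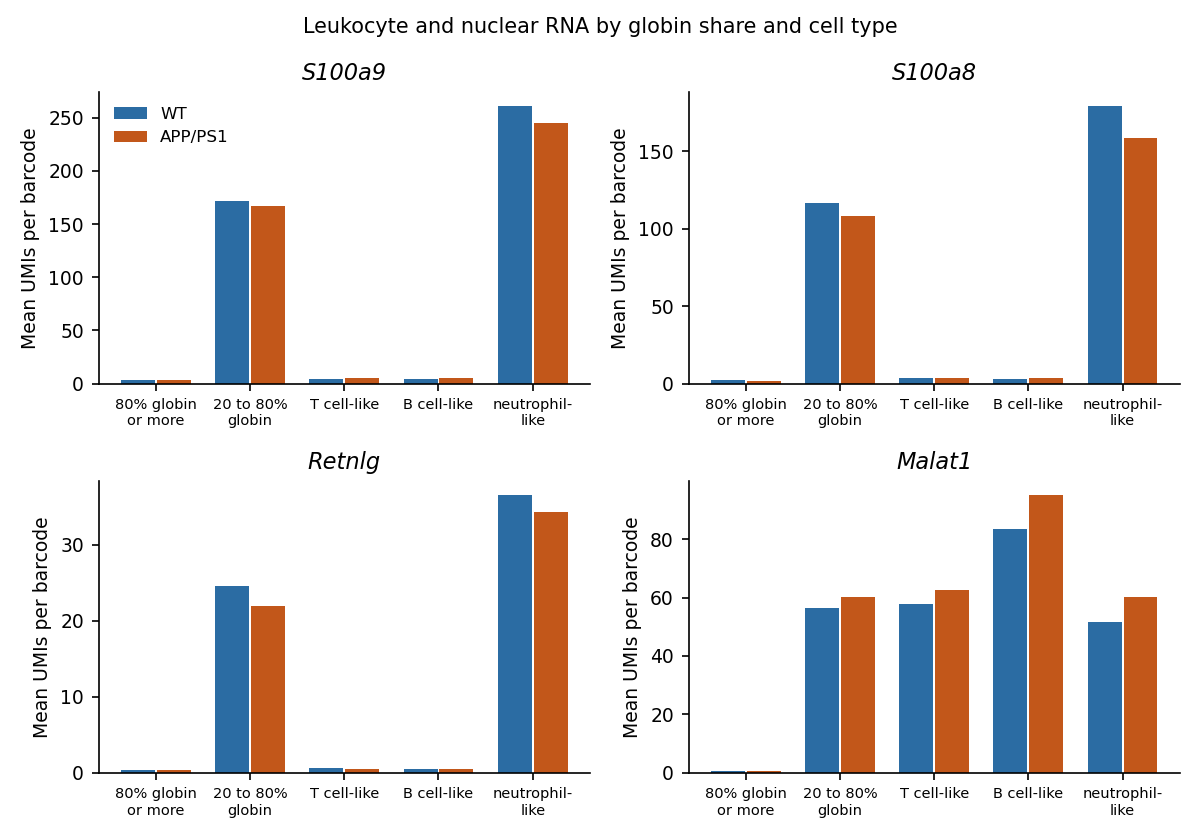
Mean UMIs per barcode (y axes, from 0) of the neutrophil transcripts S100a9, S100a8 and Retnlg and of the nuclear RNA Malat1 in each group of barcodes (x axis), with 1 bar per library. Barcodes with 80% globin or more sit at or below the T cell-like and B cell-like level for every gene drawn, and those with 20 to 80% globin sit near the neutrophil-like level for Malat1 and between both for the others.

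By a count of at least 3 detected markers of a class, 759 of 769 WT and 495 of 499 APP/PS1 globin-dominated barcodes belonged to no leukocyte class. The neutrophil count left out S100a8, S100a9, Retnlg, Ngp, Camp and Ltf, and S100a9 had a UMI in 83.2% and 84.2% of globin-dominated barcodes. At their median depths of 274 and 269 non-globin UMIs few markers can be detected, so the count also reflects depth and the choice of markers. Of the barcodes with 20 to 80% globin, 102 WT and 83 APP/PS1 barcodes were neutrophil-like, 47 and 29 monocyte-like, 29 and 22 had markers of several classes, 13 and 10 were in no class, and few were lymphocyte-like. Among those of 1 class the neutrophil-like made up 63.8% and 69.2%, beside 59.3% and 70.1% among all other barcodes of the same libraries. Scrublet, which scores barcodes for likeness to simulated pairs of cells, called 63.4% (56.3 to 70.02) of WT and 65.1% (57.0 to 72.7) of APP/PS1 barcodes with 20 to 80% globin, against 2 of 769 and 0 of 499 globin-dominated ones (the latter allows a share of up to 0.737%) and 8.41% and 6.93% of all others. Erythroid genes that the rule did not use were found in both ranges. Bpgm had a UMI in 82.1% and 78.0% of globin-dominated barcodes and in 82.2% and 85.5% of those with 20 to 80% globin, against 0.711% and 0.806% of neutrophil-like barcodes, and Slc4a1 in 25.5% and 22.2% and in 31.2% and 26.3%. No Ptprc UMI was found in 15 of 202 WT and 6 of 152 APP/PS1 barcodes with 20 to 80% globin, and at 70 to 80% globin 69.2% and 71.4% had one. Summed over barcodes, the 20 to 80% range held erythroid and leukocyte transcripts, and it is named by its globin share only. Whether these barcodes are pairs of cells was not tested beyond this call. Called doublets were kept, and left out in an alternative. The libraries shared 83 barcode sequences, 6 of them in WT and 5 in APP/PS1 members, and no barcode was a member in both.

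Globin and Alas2 barcodes were a larger share of the WT library. They were 5.96% (5.61 to 6.34) of the 16281 WT barcodes within the UMI and mitochondrial limits and 3.89% (3.60 to 4.20) of the 16725 APP/PS1 barcodes, a difference of -2.07 percentage points (-2.54 to -1.61) and a ratio of WT to APP/PS1 of 1.53 (1.39 to 1.69). Globin-dominated barcodes gave 4.72% and 2.98%, a ratio of 1.58 (1.41 to 1.78), and those with 20 to 80% globin gave 1.24% and 0.909%, a ratio of 1.37 (1.10 to 1.70). Globin in the other barcodes went the same way, with a mean of 5.53 UMIs in WT and 2.86 in APP/PS1 among barcodes under 2% globin. Whether that globin was free RNA was not tested. Lysis, enrichment and pooling act before these numbers arise, and their part was not tested. Under the gene and UMI percentiles that the study applied, 74 of 769 WT (9.62%) and 8 of 499 APP/PS1 (1.60%) globin-dominated barcodes would remain, because 695 and 491 lie under the 5th percentile of genes (236 and 321 genes). Of the barcodes with 20 to 80% globin, 91.6% and 82.9% would remain. The difference in the share of globin and Alas2 barcodes under these percentiles was -0.897 percentage points. They left 259 WT and 134 APP/PS1 of the 971 and 651 barcodes, so the smaller difference in points is not a smaller ratio of counts. The percentiles were taken here in each library separately, and the study does not state whether it did so. The limits of 236 and 321 genes therefore differ between the libraries, and their part in these counts was not tested.

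The globin mixture of the globin-dominated barcodes was nearly the same in both libraries. The rule used the sum of these genes, so their proportions are given as a description. Hbb-bs gave 1640716 UMIs in WT and 1030477 in APP/PS1, 48.5% and 48.1% of adult globin UMIs. The ratio of alpha to beta UMIs was 0.690 (0.689 to 0.692) in WT and 0.701 (0.699 to 0.703) in APP/PS1. These intervals do not overlap, though the difference is small beside the spread of single barcodes. Hbb-bt, the minor beta gene, made up 17.98% (17.93 to 18.04) and 18.24% (18.17 to 18.30) of beta UMIs. The 5th to 95th percentile of the Hbb-bt share over single barcodes ran from 4.91 to 24.6% in WT and from 3.84 to 25.5% in APP/PS1, and of the alpha to beta ratio from 0.516 to 0.868 and from 0.526 to 0.863. In barcodes with 20 to 80% globin the pooled ratio was 0.655 and 0.658 and the Hbb-bt share 18.8% and 18.2%. The barcodes with 20% globin or more and no Alas2 had an Hbb-bt share of 7.92% and 8.35%. Globin in barcodes under 2% globin had a share of 16.5% and 15.5%, at an alpha to beta ratio of 0.839 and 0.896.

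Globins of earlier development were absent or nearly so. The embryonic genes Hba-x, Hbb-bh1 and Hbb-bh2 had 0 UMIs in the globin and Alas2 barcodes of both libraries and Hbb-y had 0 in WT and 1 in APP/PS1, where 3 UMIs would be 2.79 and 3.93 of 1000000 non-globin UMIs. Hbq1a and Hbq1b, theta globin genes at the alpha locus, had 84 and 68 UMIs in WT and 59 and 38 in APP/PS1. Ahsp, the chaperone of free alpha chains, was not analysed here.

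Levels of the other genes are given as CPM, the UMIs of a gene per 1000000 non-globin UMIs, since the rule sets the globin share. UMIs tag the 3′ ends of transcripts and are not divided by length. The non-globin RNA of globin-dominated barcodes was 241030 UMIs in WT and 155945 in APP/PS1. The largest part was Gm42418, a noncoding annotation that overlaps ribosomal RNA (chr17:39846958-39848788), with 25.9% and 31.0%. Its antisense neighbour AY036118 gave 34373 and 36083 CPM, and the reads of such overlapping annotations cannot be separated with certainty. Ribosomal protein genes made up 5.99% and 5.70%, against 30.7% and 29.0% in T cell-like barcodes, and mitochondrially encoded genes 1.66% and 1.25%, against 4.31% and 3.75%. Both shares were above those of neutrophil-like barcodes, which were 3.52% and 3.60% for ribosomal protein genes and 0.366% and 0.317% for mitochondrial genes. Thinned to 1000 UMIs each, globin-dominated barcodes held a median of 41 and 39 genes and T cell-like barcodes 568 and 572.5.

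Set against all other barcodes of their own library, 140 of the 351 genes with at least 100 UMIs in globin-dominated barcodes were at least 2-fold higher in both libraries (39.9%) and 134 were at least 2-fold lower (38.2%). Over all globin and Alas2 barcodes the counts were 110 of 2258 (4.87%) and 1 (0.0443%). A gene absent from other barcodes reaches this minimum of UMIs only through these cells, and the barcodes were chosen by 5 of the genes, so the counts describe the barcodes and support nothing further.

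Of the 12 haem synthesis genes only the first and the last enzyme were well represented. The list summed to 26478 CPM (25832 to 27136) in WT and 24630 (23858 to 25422) in APP/PS1, of which Alas2 gave 83.3% and 84.2%. Alas2, which the rule required, averaged 6.92 UMIs per globin-dominated barcode in WT and 6.48 in APP/PS1. Fech, the ferrochelatase that inserts iron into the ring, reached 4120 and 3565 CPM, 257-fold and 271-fold above other barcodes. Between them in the pathway, Alad had 4 UMIs in each library, Uros 2 and 1, Urod 23 and 16, Cpox 4 and 2 and Ppox 4 and 3. These counts are too few to compare the libraries. Set per 1000000 globin UMIs instead, Alas2 stood at 1573 (1531 to 1616) in WT and 1508 (1456 to 1561) in APP/PS1. In barcodes under 2% globin it stood at 1253 (1025 to 1516) and 833 (590 to 1144).

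The iron genes with most UMIs were those of mitochondrial delivery and storage. Slc25a37, the mitochondrial iron importer mitoferrin 1, had 4402 CPM in WT and 3976 in APP/PS1, 131-fold and 107-fold above other barcodes. Glrx5, of iron-sulfur cluster assembly, had 1448 and 1468 CPM, and Ncoa4, the receptor that delivers ferritin to autophagy, 1626 and 1674 CPM. The ferritin chains Ftl1 (12455 and 12242 CPM) and Fth1 (9795 and 7894 CPM) were closer to other barcodes, at 3.12-fold and 2.90-fold and 1.30-fold and 1.13-fold the level of other barcodes. Tfrc, the transferrin receptor by which erythroid precursors take up iron and which reticulocytes shed, had 18 UMIs in WT and 5 in APP/PS1 (74.7 and 32.1 CPM), 13.7-fold and 6.35-fold above other barcodes. These UMIs lay in 11 WT and 4 APP/PS1 barcodes, 1 of which held 6 of the 18. Of the 14 genes of the list, 5 had 100 UMIs or more and 4 of these were at least 2-fold above other barcodes. Among all 351 tested genes, 39.9% were that far above.

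Transcripts of band 3 were nearly absent from other barcodes but were seen in a minority of the globin-dominated ones. Slc4a1, the anion exchanger band 3, had 1859 CPM in WT and 1610 in APP/PS1 against 0.0927 and 0.0870 in other barcodes. It stood at 14.29 and 14.18 on the log2 scale over other barcodes. A Slc4a1 UMI was found in 25.5% (22.4 to 28.7) of WT and 22.2% (18.7 to 26.2) of APP/PS1 globin-dominated barcodes, against 0.0427% and 0.0224% of neutrophil-like barcodes (median depths of 2523 and 2670 UMIs). Epb41, the skeletal protein 4.1, was more evenly spread, with 4672 and 4585 CPM and a UMI in 65.0% and 62.9% of barcodes. The skeleton genes Epb42 and Ank1 had 39 and 19 and 20 and 16 UMIs, Rhag 2 and 3 and Icam4 0. Of the 21 genes, 4 had 100 UMIs over both libraries and each of them was more than 2-fold above other barcodes, as were 39.9% of all 351 tested genes.

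Most erythroid transcription factors had few UMIs or none. The list of 14 genes summed to 147 UMIs in WT and 74 in APP/PS1 globin-dominated barcodes, 610 and 475 CPM against 352 and 312 in other barcodes. Gata1 had 2 UMIs in WT and 3 in APP/PS1 globin-dominated barcodes, Tal1 3 and 1, and Klf1, Gfi1b, Myb and the erythropoietin receptor gene Epor had 0. Lmo2, a partner protein of the GATA and Tal1 complex, made up 53.1% and 51.4% of this list with 78 and 38 UMIs and was the 1 gene of the list with 100 UMIs over both libraries, 5.31-fold and 4.91-fold above other barcodes. The 12 genes of cell division had 11 UMIs in each library. A count of 0 allows up to 3 UMIs over the globin-dominated barcodes of a library, so lower levels were not detectable at this depth.

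Genes of organelle clearance and protein turnover were the largest of the erythroid lists. They summed to 61710 CPM (60722 to 62710) in WT and 60367 (59154 to 61599) in APP/PS1. Of 12 genes of sufficient count, 11 were at least 2-fold above other barcodes and 1, the kinase gene Pim1, at least 2-fold below. Among all 351 tested genes these shares were 39.9% and 38.2%. The ubiquitin ligase gene Mkrn1 gave the most, with 13214 and 12902 CPM, 69.7-fold and 60.7-fold above other barcodes. The ubiquitin-conjugating enzyme genes Ube2l6 (7887 and 7528 CPM) and Ube2o (2543 and 1866 CPM) stood 336-fold and 386-fold and 191-fold and 145-fold above. Bnip3l, the receptor that marks mitochondria for removal from reticulocytes, had 7476 and 7374 CPM, and its autophagy partners Gabarapl2 and Map1lc3b had 3921 and 3828 and 3128 and 3456 CPM. Tent5c, a poly(A) polymerase gene, had 9074 and 7958 CPM and stood 976-fold and 882-fold above other barcodes. Alox15 had 0 UMIs in both libraries and Trim58 had 0 and 1.

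**Figure D3:**
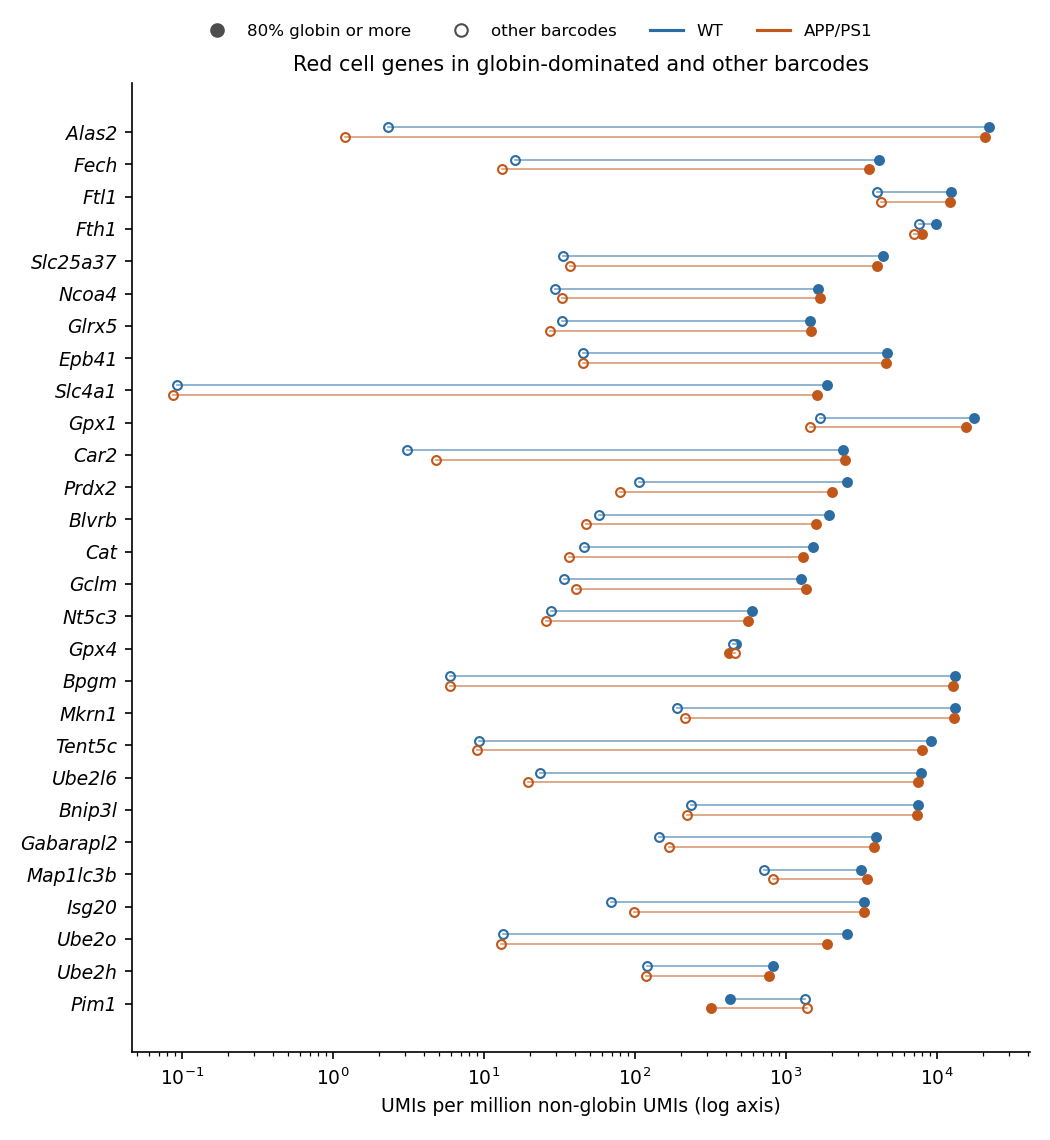
CPM of non-globin UMIs (x axis, log) in barcodes with 80% globin or more (filled) and in other barcodes (open) for 28 of the 30 genes of the haem, iron, membrane, antioxidant, glycolysis and clearance lists with at least 100 UMIs in globin-dominated barcodes of 1 library, coloured by library. Slc4a1 and Alas2 show the widest gaps between filled and open points. The rule required Alas2, so its gap follows in part from the choice of barcodes. Slc4a1 had a UMI in only 8 WT and 6 APP/PS1 other barcodes. Fth1 and Gpx4 show nearly no gap, and Pim1 is the one gene with its filled points to the left of both open points at a gap over 2-fold.

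Of the 12 antioxidant and gas exchange genes, 9 had 100 UMIs or more over both libraries, of which 7 were at least 2-fold above other barcodes and 1, the glutathione reductase gene Gsr, at least 2-fold below (361 and 308 CPM against 1046 and 1044). The shares above and below among all 351 tested genes were 39.9% and 38.2%. Glycolysis was represented mostly by 1 gene. Gpx1, a glutathione peroxidase gene, had 17467 CPM (16943 to 18003) in WT and 15634 (15019 to 16267) in APP/PS1, 10.4-fold and 10.9-fold above other barcodes, and made up 61.1% and 60.9% of its list. Prdx2, the peroxiredoxin of red cells, had 2518 and 2026 CPM, catalase (Cat) 1498 and 1302, and the biliverdin reductase gene Blvrb 1921 and 1571. Of the carbonic anhydrase genes, Car2 had 2373 and 2450 CPM and Car1 only 4 and 1 UMIs. Bpgm, which makes the 2,3-bisphosphoglycerate that tunes oxygen release, had 13144 CPM (12690 to 13609) and 12742 (12188 to 13315), 2202-fold and 2136-fold above other barcodes, and it alone was 92.8% and 93.8% of the 14 glycolysis genes. The remaining glycolytic genes were sparse, with 47 and 29 UMIs for Gapdh, 13 and 7 for Ldha and 0 for Pklr, the red cell pyruvate kinase gene.

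Outside the lists, the genes with the highest ratio over other barcodes included several known from erythroid cells. Trim10, a ligase gene of terminal erythroid differentiation, had 94 and 50 UMIs, Tspo2, an erythroid membrane protein gene, 113 and 73, and Slc25a39, a mitochondrial carrier gene, 699 and 385 (2900 and 2469 CPM). Apol11b had 430 UMIs in WT and 151 in APP/PS1, Prxl2a 537 and 317, Cdr2 201 and 114, Tfdp2 443 and 331 and Isca1, of iron-sulfur cluster assembly, 427 and 298. Cell cycle genes also stood in this group although the list of cell division was near 0: Ube2c had 223 and 154 UMIs (925 and 988 CPM) against 5.11 and 1.94 CPM in other barcodes, and Nusap1 had 96 and 40. Rec114, a gene of meiotic recombination, had 124 and 85 UMIs. Paqr9 (66 and 57 UMIs), Fam220a (151 and 100), Aldh1a1 (196 and 135) and Fam210b (111 and 66) completed the 15 genes.

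Of the 8 interferon-induced genes, 4 had 100 UMIs or more over both libraries, of which 2 were at least 2-fold above other barcodes and 1 at least 2-fold below. Among all 351 tested genes 39.9% were above and 38.2% below by this measure, so these counts are near the background. Rsad2, which encodes the antiviral enzyme viperin, had 4709 CPM in WT and 4425 in APP/PS1 against 205 and 380 in other barcodes, and a UMI in 48.8% and 44.5% of globin-dominated barcodes. Isg15, a ubiquitin-like modifier, had 1672 and 1116 CPM against 189 and 321. Ifi27l2a was lower, with 863 and 673 CPM against 2410 and 2572, and Bst2 had 4 and 3 UMIs. Irf7, a transcription factor gene of this response, had 266 and 257 CPM against 132 and 150 and did not reach 2-fold in APP/PS1. The Ifit genes of the same list were near 0, with 12 and 6 UMIs of Ifit1, 2 and 1 of Ifit2 and 1 and 3 of Ifit3. Platelet genes were present as well: the 8 markers summed to 729 and 341 UMIs (3025 and 2187 CPM), with all of them above 0 and Pf4 the most abundant at 362 and 143 UMIs. Pf4 stood at 1502 and 917 CPM against 295 and 332 in other barcodes, and had a UMI in 24.8% and 17.6% of globin-dominated barcodes. The part of platelets or free platelet RNA in the results was not tested.

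The globin-dominated barcodes were not uniform, and the genes differed in how evenly they were spread. The 10% of barcodes with most UMIs of a gene held 21.5% of Alas2 UMIs in WT and 22.2% in APP/PS1, 26.8% and 26.1% of Ube2l6, and 28.5% and 32.6% of Bpgm. The same share was 69.0% and 74.5% for Slc4a1, 80.2% and 88.0% for Car2 and 78.9% and 78.2% for Isg15. A gene with a lower mean is more concentrated by sampling alone, so these shares also reflect the means. Car2 had a lower mean than Alas2, with 0.744 and 0.766 UMIs per barcode.

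When globin-dominated barcodes were grouped by their Slc4a1 UMIs, other genes were higher along with them in both libraries while Alas2 was not. This grouping was made after the values had been seen and is a description. No Slc4a1 UMI was found in 573 WT and 388 APP/PS1 barcodes, 1 to 3 in 159 and 93, and 4 or more in 37 and 18, so the last group is thin. The groups also differed in size: the median number of genes was 110, 191 and 252 in WT and 101, 175 and 239 in APP/PS1, and the median number of globin UMIs was 4156, 5462 and 5900 and 3911.5, 5661 and 6768.5. Values are therefore given per 1000000 globin UMIs. On this scale Alas2 stayed level, at 1596, 1521 and 1528 in WT and 1499, 1550 and 1442 in APP/PS1, and Ube2l6 was at 566, 529 and 656 and 563, 488 and 608. Car2 went from 52.5 through 321 to 795 in WT and from 63.3 through 319 to 1033 in APP/PS1. Prdx2 went from 84.2 through 330 to 589 and from 66.0 through 291 to 567, and Gpx1 from 789 through 1954 to 3249 and from 697 through 2038 to 2883. Rsad2 went from 236 through 491 to 773 and from 202 through 586 to 717. These differences were already present between the first 2 groups, which hold most barcodes. Non-globin RNA was itself higher beside globin in these groups, with medians of 239, 429 and 597 UMIs in WT and 232.5, 434 and 663 in APP/PS1. Bpgm and Mkrn1 took a middle course, from 796 to 1276 and 793 to 1465 in WT and from 769 to 1317 and 746 to 1625 in APP/PS1. As CPM of non-globin UMIs, Bpgm was at 12402, 14791 and 12815 in WT and 11730, 15066 and 12589 in APP/PS1, and Mkrn1 at 12355, 14538 and 14710 and 11377, 15587 and 15537. On this scale Alas2 was lower along the groups, at 24871, 18313 and 15342 and 22876, 17879 and 13784, while Car2 was again higher, at 818, 3860 and 7987 and 967, 3676 and 9880. Per globin UMI, Pf4 went the other way, from 120 to 85.4 and from 70.6 to 58.3. The neutrophil transcript S100a9 went from 610 through 727 to 858 and from 680 through 848 to 758, and its part in these differences was not tested. Of the 18 Tfrc UMIs in WT, 2, 4 and 12 lay in the 3 groups, and of the 5 in APP/PS1 2, 3 and 0. The 12 lay in 5 barcodes, and 1 WT barcode held 6 of the 18.

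**Figure D4:**
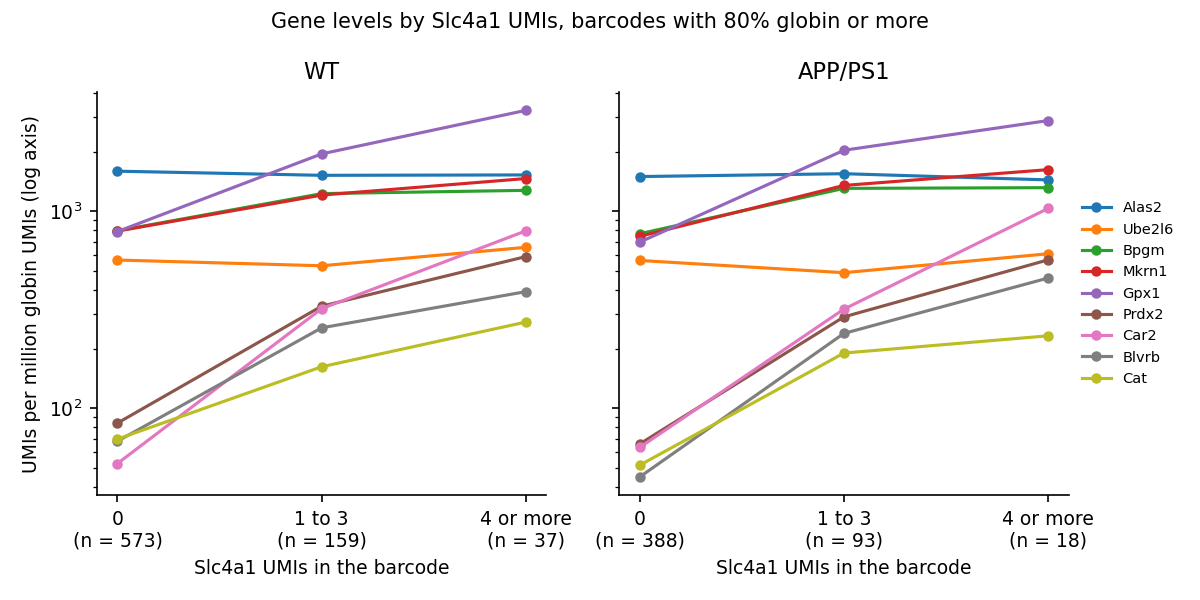
UMIs per 1000000 globin UMIs (y axis, log) of 9 genes in barcodes with 80% globin or more, grouped by their Slc4a1 UMIs (x axis, with the number of barcodes), WT at the left and APP/PS1 at the right. Car2, Prdx2, Blvrb, Cat and Gpx1 climb from the group with 0 to that with 4 or more in both libraries, and Alas2 and Ube2l6 stay nearly flat.

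The Hbb-bt share of beta globin varied with Bpgm and Slc4a1. With barcodes ordered by this share and split into 3 groups of like size, Bpgm went from 557 through 928 to 1173 UMIs per 1000000 globin UMIs in WT and from 566 through 885 to 1169 in APP/PS1, and Slc4a1 from 50.5 to 185 and from 29.3 to 203. Alas2 stayed between 1515 and 1609 and between 1468 and 1552. The median number of globin UMIs went from 3161 to 5437 and from 2898 to 5575.5, so depth moved with this share too, and its part was not tested. Over single barcodes, the correlation of the Hbb-bt share with Alas2 per globin UMI was -0.04 over 769 WT and 0.02 over 499 APP/PS1 barcodes.

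Among the genes whose pattern across all globin and Alas2 barcodes was most like that of Alas2 were Gm42418 (mean Pearson r of both libraries 0.85 over 971 and 651 barcodes), AY036118 (0.67), Ube2l6 (0.47), Lars2 (0.33), Tent5c (0.31), Bpgm (0.31), Oaz1 (0.30), Bnip3l (0.25) and Mkrn1 (0.24) of 1200 genes, on log-normalized non-globin values. These points share the split between globin-dominated barcodes and those with leukocyte RNA. Within globin-dominated barcodes alone the order was again led by Gm42418 (0.28), AY036118 (0.13) and Ube2l6 (0.13) of 205 genes, and the values were weak.

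Between the genotypes, most erythroid gene lists of globin-dominated barcodes differed little. Each of the lists for haem synthesis, iron handling, membrane, clearance, antioxidants and glycolysis differed by no more than the antioxidant list (0.15 lower on the log2 scale), and 0 of their 30 genes with at least 100 UMIs in 1 library reached 1.5-fold, where 5.31% of all tested genes were lower and 0.408% higher by this measure, so that 0 of 30 is close to the background. Haem synthesis genes were at -0.10 (-0.16 to -0.05) in APP/PS1 over WT, iron genes at -0.13 (-0.18 to -0.07), membrane genes at -0.14 (-0.24 to -0.04), clearance genes at -0.03 (-0.07 to 0.01), antioxidant genes at -0.15 (-0.21 to -0.10) and glycolysis genes at -0.06 (-0.14 to 0.02). The list of erythroid transcription factors and the erythropoietin receptor was at -0.36 (-0.79 to 0.05) from 147 and 74 UMIs, an interval that includes 0. The median of all 245 tested genes was itself -0.10, and it was 0.02 when Gm42418 and AY036118 were taken out of the denominator, so the small negative values do not stand apart from it. Gm42418 was at 0.26 (0.24 to 0.28), Fth1 at -0.31 (-0.41 to -0.21), Prdx2 at -0.31 (-0.51 to -0.12) and Ube2o at -0.45 (-0.65 to -0.24). The interferon list was at -0.21 (-0.32 to -0.10), with Isg15 at -0.58 (-0.85 to -0.32), and the platelet list at -0.47 (-0.66 to -0.28).

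**Figure D5:**
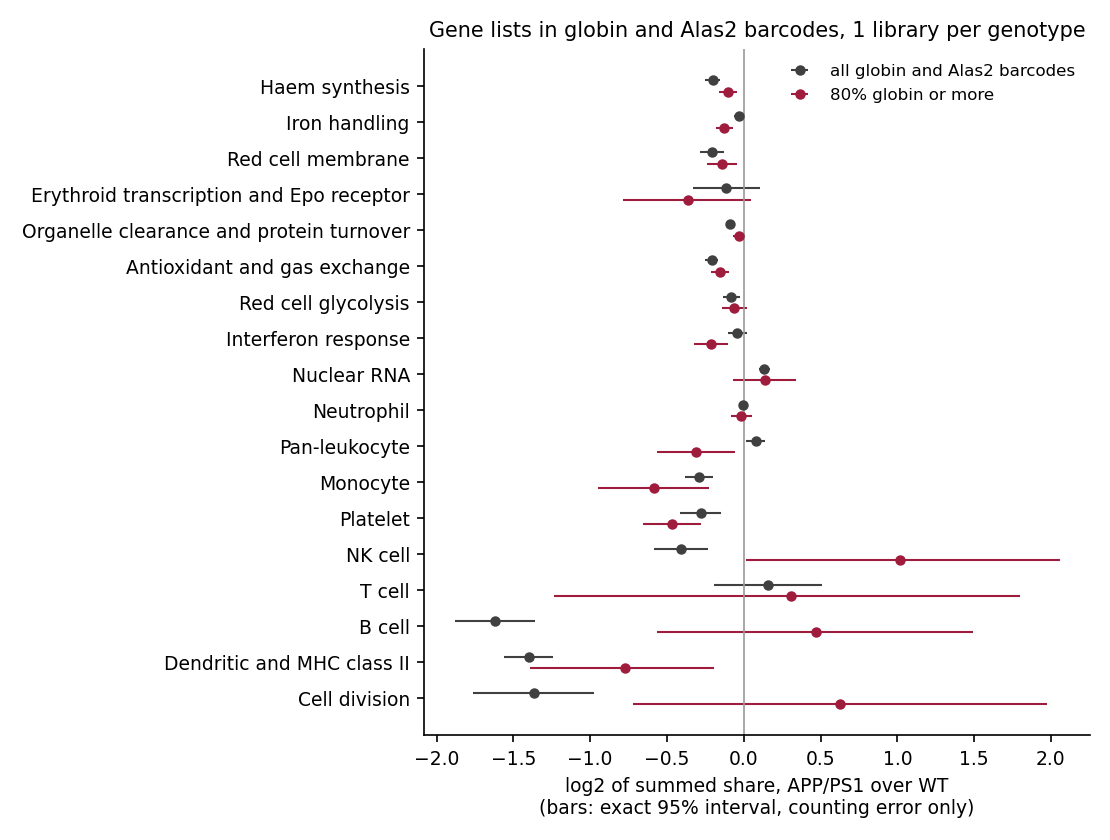
Log2 ratio of each gene list's summed share of non-globin UMIs, APP/PS1 over WT (x axis), in all globin and Alas2 barcodes (dark) and in those with 80% globin or more (red), with exact 95% intervals for counting error. The haem, iron, membrane, clearance, antioxidant and glycolysis lists lie between -0.21 and -0.03 in both, whereas the B cell and cell division lists are at -1.62 and -1.36 in all barcodes and at 0.47 and 0.63 with 80% globin or more. The NK cell list is at -0.41 and 1.02.

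In globin-dominated barcodes 13 of 245 genes were at least 1.5-fold lower in APP/PS1 (5.31%) and 1 was at least 1.5-fold higher (0.408%). Without Gm42418 and AY036118 in the denominator these counts were 4 and 2. The lowest was Apol11b, an apolipoprotein L family gene at chr15:77633946-77643286, minus strand, with 430 UMIs in WT and 151 in APP/PS1, 1784 and 968 CPM, a log2 ratio of -0.88 (-1.16 to -0.61). It had a UMI in 27.7% of WT and 16.6% of APP/PS1 globin-dominated barcodes, and 0.116 and 0.0746 CPM in other barcodes. Over all globin and Alas2 barcodes Apol11b was at -0.98, and the alternatives ran from -1.14 to -0.66. Pf4 was at -0.71 (-1.001 to -0.43), while in other barcodes it was at 0.17. Psme3, a proteasome activator gene and high in these cells (1203 and 782 CPM), was at -0.62 (-0.94 to -0.31) and at -0.18 in other barcodes, and came to -0.32 over all globin and Alas2 barcodes once called doublets were left out. Of the remaining genes among the 10 lowest, Plac8, Slpi, Rpl26, Wfdc17, Ifitm1, H2-K1 and Arhgdib were all at least 2-fold below their level in other barcodes, and the part of free leukocyte RNA in these values was not tested. The gene above 1.5-fold was Fos, with 92 and 107 UMIs and a log2 ratio of 0.85 (0.43 to 1.26), and it was at 0.73 in other barcodes.

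Over all globin and Alas2 barcodes, 48 of 1391 genes were at least 1.5-fold lower in APP/PS1 (3.45%) and 19 higher (1.37%), and with all UMIs as the denominator the split was 34 and 34. With globin UMIs as the denominator the balance turned over, to 27 lower and 42 higher. With called doublets left out 106 genes were lower and 13 higher, over another set of tested genes. Of the 48 lower and 19 higher genes, 19 and 6 were still tested there, and 13 and 4 were still called. Beside these, 39 of 1232 genes were lower (3.17%) and 16 higher (1.3%) in the barcodes with 20 to 80% globin. All 10 highest genes over the globin and Alas2 barcodes had a ratio above 0 in the other barcodes too. Ccrl2, a chemerin-binding receptor gene, had 175 and 240 UMIs and a log2 ratio of 0.95, against 1.14 in other barcodes, Zfp36 was at 0.97 and 0.78, Fos at 0.84 and 0.73, Jun at 0.84 and 0.87, Egr1 at 0.71 and 0.77 and Chil3 at 1.02 and 0.67. Chil3 turned to -0.34 in the globin and Alas2 barcodes under the study's percentiles. Of the 240 Ccrl2 UMIs in APP/PS1, 23 lay in globin-dominated barcodes. The lowest were immunoglobulin and MHC class II genes. Jchain was at -6.43, Igha at -6.39, Igkc at -4.63, Cd79a at -3.12, Iglc2 at -3.11, H2-Eb1 at -1.87, H2-Aa at -1.77 and H2-Ab1 at -1.67. A single WT barcode with 23.6% globin held 2755 of the 3201 Igkc UMIs, 817 of the 828 Igha UMIs and 360 of the 363 Jchain UMIs, and another with 23.3% globin held 60 of the 68 Mki67 UMIs and 155 of the 257 UMIs of the cell division list. With both left out, 42 genes were lower and 17 higher. The ribosomal protein genes Rpl29 (-1.19) and Rpl26 (-0.73) stood at -1.13 and -0.63 in the other barcodes too.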

How the data were processed

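The values deposited by the authors are raw UMI counts, without normalization, of 32285 features in each barcode called a cell; the submitters' processing notes name Cell Ranger 5.0.0 and mm10, and the kit was the 10x Genomics 3′ v3 kit. Members and lists were chosen with earlier results of these data known. Of 218 list genes, 217 were found. From the deposited counts, UMIs were summed per library and divided by non-globin UMIs. Without replicates, ratios between genotypes were read against 1.5-fold (genes with at least 100 UMIs in 1 library). Ratios over other barcodes were read against 2-fold (both libraries, at least 100 UMIs in members). Intervals were exact Poisson, Clopper-Pearson and conditional binomial ones in scipy 1.17.1, tested on simulated Poisson and binomial counts. Such counts hold no clustering of UMIs within barcodes, so that part of the error was not tested. The interval of a difference of shares is that of Newcombe and of a median that of order statistics.

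Named genes were those of the lists, the 15 with the highest CPM and the 15 with the highest ratio over other barcodes outside the lists, the 10 highest and 10 lowest genotype ratios, and the 10 most like Alas2 among genes with at least 200 UMIs. The same rule was applied to globin-dominated barcodes after the data were seen, and genes singled out from the groups by Slc4a1 UMIs were chosen after their values were seen.

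Doublets were scored with Scrublet in scanpy 1.11.5 at an expected 8%. Its automatic threshold called no APP/PS1 barcode, so the WT threshold was applied to both libraries. Alternatives were other globin and Alas2 limits, the study's percentiles, doublets left out, members over 5% neutrophil UMIs left out, thinning to 1000 UMIs, all UMIs, globin UMIs or edgeR 4.0.16 (TMM) library sizes as denominators, means over cells, and gene filters of 50, 10 or 1 UMI. Coordinates are those of GENCODE M21 and, for promoters, RefSeq. Some named genes are not reported here.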

Additional observations from a re-analysis of the deposited data

Results flagged for a closer look

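For 5 genes with at least 100 UMIs in 1 library the genotype ratio was past 1.5-fold in globin and Alas2 barcodes and past 1.5-fold the other way in all other barcodes, and the difference was not tested. Jchain was at -6.43 (log2 APP/PS1 over WT) against 1.37 in other barcodes, Igha at -6.39 against 1.38, Igkc at -4.63 against 1.14, Camp at -0.78 against 1.36 and Gzma at -0.70 against 0.76. Much of this lay in single barcodes. In WT, 1 barcode held 86.1% of Igkc, 98.7% of Igha and 99.2% of Jchain UMIs, another held 290 of 303 Camp UMIs, and another 261 of 591 Gzma UMIs (44.2%). In APP/PS1, 1 barcode held 103 of 125 Camp UMIs. In globin-dominated barcodes Igkc had 31 WT and 25 APP/PS1 UMIs and Jchain 1 and 1.

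Below the minimum of 1000 UMIs, 39 WT and 28 APP/PS1 barcodes also had at least 20% globin and an Alas2 UMI. They entered no comparison other than the share difference at a UMI minimum of 500, which was -2.06 points.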

How the results depend on the processing

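No paired analysis was possible because each genotype had 1 library and no test was run. The share difference (-2.07 points) was -0.897 under the study's percentiles (259 WT and 134 APP/PS1 barcodes left) and stayed within its counting interval otherwise. The genotype difference in globin share of member UMIs (-1.37 points) was -1.58 at a globin limit of 10%, -0.415 at 50%, -0.126 at 80%, -1.46 with at least 2 Alas2 UMIs, -5.10 under the study's percentiles, -0.0111 without members over 5% neutrophil UMIs, and reversed to 1.48 without called doublets. That of the neutrophil list share (-0.0121 points) was 0.389 at 10% globin, -0.9998 at 50%, 0.0928 with at least 2 Alas2 UMIs, 0.382 without doublets, 0.192 without members over 5% neutrophil UMIs and 0.0892 over all UMIs.

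Genes higher and lower in APP/PS1 (19 and 48) numbered 34 and 34 over all UMIs, 42 and 27 over globin UMIs, 66 and 152 with a filter of 50 UMIs, 587 and 1120 with 10, 2201 and 3413 with 1, 78 and 146 by means over cells, 4 and 10 after thinning (221 genes tested), 13 and 106 without doublets, 42 and 85 under the study's percentiles, and 21 and 44 with TMM. At 80% globin they were 1 and 13, and 2 and 4 when Gm42418 and AY036118 left the denominator as well. The set of tested genes differed with the filter, with thinning and with the barcodes included, so these counts do not refer to the same genes. The 110 genes above other barcodes were 47 over all UMIs and 199 with a filter of 10 UMIs.

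At 80% globin the cell division list went from -1.36 to 0.63 (11 UMIs in each library) and the B cell list from -1.62 to 0.47 (19 and 17 UMIs). The NK cell list went from -0.41 to 1.02 (0.01 to 2.06, from 16 and 21 UMIs). The pan-leukocyte list turned the other way, from 0.08 to -0.31 (373 and 195 UMIs). Camp (-0.78) was at 0.49 by means over cells and Chil3 (1.02) at -0.34 under the study's percentiles. Gzma (-0.70) was at 0.17 by means over cells, 0.98 at 50% globin, 0.42 under the study's percentiles and 0.10 without the WT barcodes with most Mki67 and Igkc UMIs. The cause was not tested in these cases. For 30 called genes, 275 of 310 alternative values were past 1.5-fold in the same direction. These 30 are only part of the called genes and were picked in part for the size of these same ratios. The count therefore does not show how far the calls hold. Of all 19 higher and 48 lower genes, 6 and 19 were still tested without doublets, and 4 and 13 were still called. At 80% globin 1 and 5 were still tested, and 1 and 5 were still called. The ranges above 80% globin, the denominators of globin UMIs and without Gm42418 and AY036118, and the exclusion of single barcodes were chosen after seeing the data. Depth limits genes under about 100 UMIs per library.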

Other observations

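Hebp1, which encodes a haem-binding protein, differed between the libraries in the barcodes that are not globin and Alas2 barcodes. There it had 2155 UMIs in WT and 25 in APP/PS1 (24.98 and 0.311 CPM, log2 ratio -6.33, -6.96 to -5.76). In globin-dominated barcodes it had 22 and 17 UMIs (91.3 and 109 CPM, log2 ratio 0.26, -0.75 to 1.24), and with 20 to 80% globin 15 and 4 UMIs (log2 ratio -1.45, -3.50 to 0.20). The difference between these ratios was not tested.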
